A study of Mus musculus with 19 samples.

Results

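The genes described here are 9 regulators of the decay of inflammatory mRNAs, chosen by name with earlier results of these data known. They were followed by RNA sequencing in CD11b+ brain cells of mice with and without *PARK7*/DJ-1, given LPS or vehicle. They are *Zfp36*, *Zfp36l1* and *Zfp36l2* (the ZFP36 family), *Zc3h12a* and *Zc3h12c* (Regnase-1 and Regnase-3), *Rc3h1* and *Rc3h2* (Roquin-1 and Roquin-2), *Elavl1* (HuR) and *Khsrp* (KSRP), 9 of the 56980 genes in the count table. Each symbol matched exactly 1 Ensembl gene through GENCODE, and all 9 passed the filter on low counts that left 18739 genes for testing. The study asked how *PARK7*/DJ-1 deficiency alters the transcriptional response of microglia to systemic inflammation. Male littermates aged 3 to 4 months formed 4 groups: 4 wildtype and 5 KO mice that received PBS vehicle intraperitoneally (called baseline below), and 5 wildtype and 5 KO mice that received LPS of *E. coli* O55:B5 at 4 µg/g body weight. Both LPS and vehicle mice were taken 6 h after the injection. The KO mice carry a gene-trap insertion in *Park7* in every cell of the body, on a C57BL/6NCrl background, and no allele or agent is shared by all 4 groups. Each library comes from 1 mouse, from brain without olfactory bulb and cerebellum, and the CD11b beads used for sorting also bind monocytes, neutrophils and border macrophages.

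Many cytokine mRNAs carry AU-rich elements or small stem-loops in their 3′ untranslated region (UTR). ZFP36 proteins are zinc finger proteins that bind AU-rich elements and recruit the CCR4-NOT deadenylase, which shortens the poly(A) tail, while Regnase and Roquin proteins recognise stem-loops, Regnase-1 as an endonuclease and Roquin as a recruiter of deadenylation and decapping factors. KSRP also promotes decay of AU-rich mRNAs, and HuR binds the same class of elements and mostly stabilises its targets. In myeloid cells several of these genes are themselves induced by inflammatory signals, and ZFP36 is known to bind its own mRNA.

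The AU-rich letters that such proteins bind are shown first, since most members carry them in their own 3′ UTR. The heptamer TATTTAT (DNA letters of UAUUUAU, sense strand only) was found in the 3′ UTR of 7 of the 9 genes, read from the transcript with the longest coding sequence. It was present in 32.3% of the 14223 tested protein-coding genes with an annotated 3′ UTR, and its longer form TTATTTATT, which contains it, in 9.08%. *Zfp36* held 3 heptamers in a 3′ UTR of only 774 bases, or 3.88 per kb against 0.283 per kb over all these 3′ UTRs, and 1.01% of the 1478 genes with a 3′ UTR of similar length held as many. *Elavl1* held 9 in 7024 bases, and 0.449% of the 445 genes of similar 3′ UTR length held as many. Overlapping copies were counted separately in every gene, and the site of *Elavl1* printed below runs on into further copies. *Zfp36l1* and *Zfp36l2* held 3 each, and 3.83% and 4.35% of genes of similar length held as many. The other counts were common for 3′ UTRs of their length: *Rc3h2* held 4 (10.2% of such genes held as many), *Zc3h12c* 2 (23.8%) and *Rc3h1* 2 (41.5%). The heptamer was present at all in 54.5% to 73.7% of genes with a 3′ UTR as long as those of *Zc3h12c*, *Rc3h1*, *Rc3h2* and *Elavl1*. *Zc3h12a* and *Khsrp* held none, which says only that these letters are absent from the annotated sequence. One site of each of the 7 genes is printed 5′ to 3′ from the transcribed strand on GRCm39, with the heptamer or, where present, the longer motif in capitals.
*Zfp36*, chr7:28076377-28076403, minus strand: atgacgactTTATTTATTgtattaaga
*Zfp36l1*, chr12:80154942-80154968, minus strand: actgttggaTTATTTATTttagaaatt
*Zfp36l2*, chr17:84492343-84492369, minus strand: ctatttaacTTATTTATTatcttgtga
*Zc3h12c*, chr9:52026164-52026188, minus strand: tataatcatTATTTATaggaacaaa
*Rc3h1*, chr1:160797614-160797640, plus strand: ctttactcaTTATTTATTgagatgagg
*Rc3h2*, chr2:37263300-37263326, minus strand: aaagacattTTATTTATTttactctgt
*Elavl1*, chr8:4335789-4335815, minus strand: tcatgaaaaTTATTTATTtatttattt
All 7 sites lie in the exonic 3′ UTR, the one of *Zfp36* 589 bases after the stop codon. The 3 ZFP36 genes each have exactly 1 copy of the longer motif, *Rc3h2* has 2 and *Elavl1* has 8. A match of letters is a description and does not show that a protein binds there.

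Depth ranged from 11936364 to 22788884 counts per library (median 17211939), so that 3 counts in a library, taken as its smallest signal, stood for 0.139 to 0.256 CPM (counts scaled to the library total after TMM normalization). The members lay far above this limit, with 551 to 22952 counts in every library. *Park7* had 262 to 533 counts in wildtype and 9 to 90 in KO libraries, so that every KO library lay below every wildtype library. The 8 microglial markers (such as *P2ry12* and *Tmem119*) summed to 24500 to 39200 CPM at baseline and 10300 to 16700 CPM after LPS, and all 8 were lower after LPS in both genotypes. In bulk samples, fewer cells of a type and less RNA per cell cannot be told apart. After LPS all 4 monocyte markers were higher, with the range of their summed level moving from 21.7–36.5 to 170–302 CPM in wildtype and from 17.2–49 to 98.5–226 CPM in KO mice. Of 6 neutrophil markers, 3 were higher in wildtype (45.8–86.6 to 140–386 CPM summed) and 4 in KO mice (18.5–168 to 83–388 CPM). Of 5 border macrophage markers, 3 were lower in both genotypes (369–490 to 210–426 CPM over both). Lymphocyte markers stayed at or under 2.29 CPM in sum. Oligodendrocyte markers summed to 515 to 11200 CPM over all mice, and none of the 5 was called after LPS. In both genotypes 2 of 4 endothelial markers were lower, and 1 of 4 astrocyte and 1 of 4 neuron markers higher, after LPS. The part of monocytes, neutrophils, border macrophages and lymphocytes in the results below was not tested. With a score of the oligodendrocyte, astrocyte, neuron and endothelial markers as a covariate, the 6 members called higher after LPS below were still called in both genotypes. No marker that was tested was called between genotypes at baseline or after LPS, and only 1 of the 6 lymphocyte markers was tested.

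At baseline in wildtype mice, mRNA levels per kb of exon put the ZFP36 family first. *Zfp36* stood at 128 ± 22.2 CPM per kb (SD, n = 4), *Zfp36l2* at 106 ± 19 and *Zfp36l1* at 86.8 ± 8.01. The ranges of neighbours in this trio overlapped, so their order is not set beyond the spread between mice. *Khsrp* followed at 40.5 ± 3.45, *Rc3h1* at 15.6 ± 2.08 and *Zc3h12a* at 11.3 ± 1.11 CPM per kb. *Elavl1* (7.97 ± 0.291), *Rc3h2* (6.29 ± 0.68) and *Zc3h12c* (4.91 ± 0.431) came last, and from *Zfp36l1* downwards no pair of neighbours overlapped in range. The places of the last genes depend on the length used: with the longest transcript in place of all exons, 6 of the 9 kept their place. The order of baseline KO mice was the same, except that *Zc3h12a*, *Elavl1* and *Rc3h2* overlapped from one to the next. After LPS, *Zfp36l1* stood above *Zfp36l2* in both genotypes without overlap of their ranges, at 194 ± 18.1 against 106 ± 37 CPM per kb in wildtype mice (n = 5) and 198 ± 57.8 against 85.5 ± 15.7 in KO mice (n = 5).

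LPS raised 6 of the 9 genes in wildtype mice and the same 6 in KO mice: *Zfp36*, *Zfp36l1*, *Zc3h12a*, *Zc3h12c*, *Elavl1* and *Khsrp*. None was lower. The call requires an adjusted p-value under 0.05 (edgeR quasi-likelihood test over all genes tested, Benjamini-Hochberg) and |log2FC| of at least 0.5. Against this, 18.4% of all genes tested were called higher and 17.4% lower in wildtype mice, and 20.1% and 19% in KO mice. In CPM, the LPS and baseline mice did not overlap for 6 of the 9 genes in wildtype mice (37.8% of all genes) and for 4 of the 9 in KO mice (32.8% of all genes). The median log2FC of the 9 genes was 0.75 in wildtype and 0.80 in KO mice, beside −0.06 and −0.01 over all genes tested. The 9 genes were chosen with earlier results of these data known, so these comparisons with all genes are descriptions. Comparisons in the 2 genotypes use different mice throughout.

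**Figure D1:**
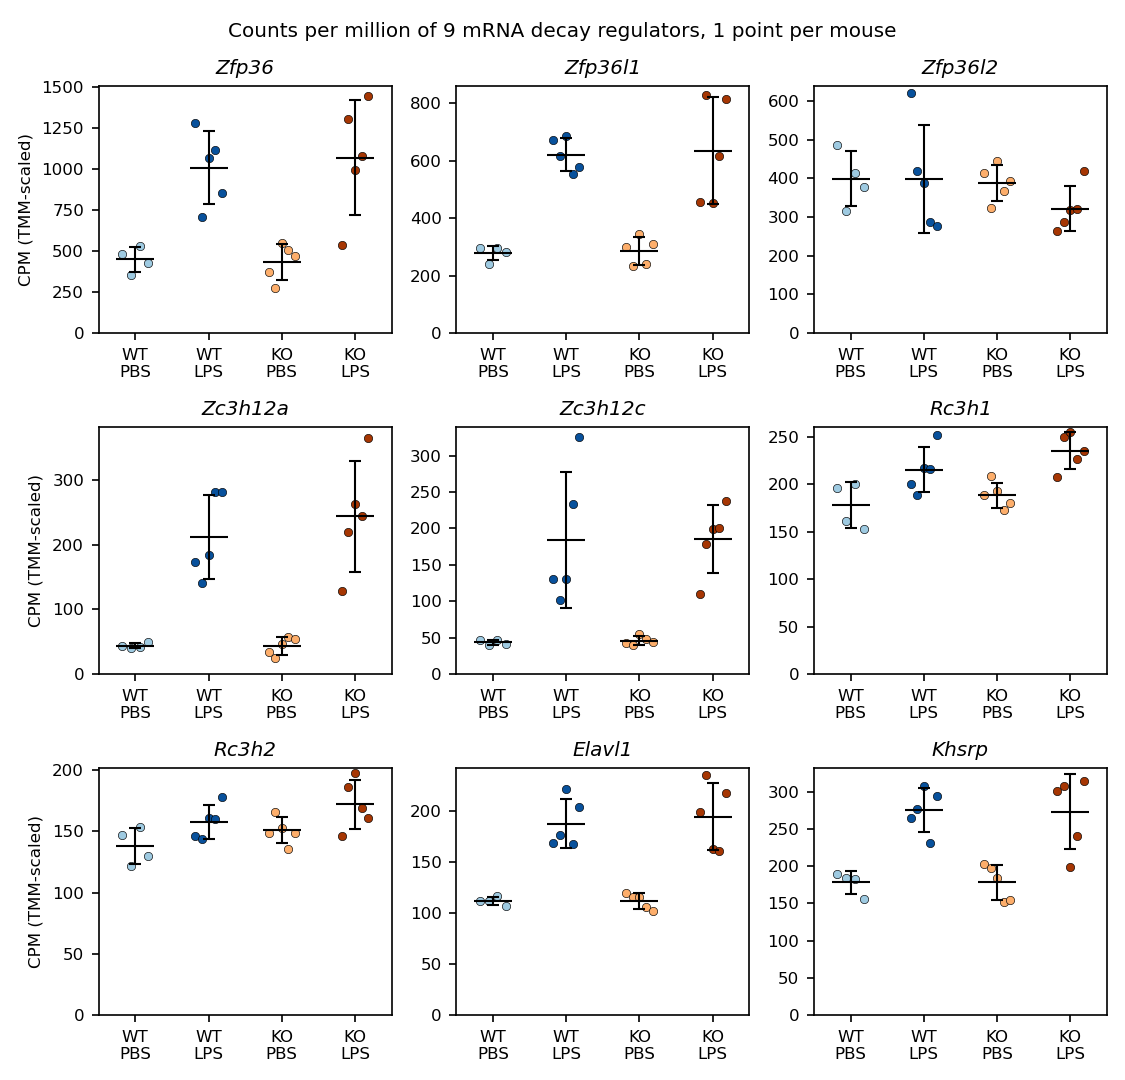
TMM-scaled CPM (vertical axes, from 0) of the 9 genes in wildtype (WT) and KO mice given PBS or LPS, 1 point per mouse, with bars for the mean ± SD (n = 4 in the WT PBS group and 5 in each other group). *Zc3h12a* and *Zc3h12c* separate LPS from PBS mice most widely, while the groups overlap in both genotypes for *Zfp36l2*, *Rc3h1* and *Rc3h2*, and in KO mice also for *Zfp36* and *Khsrp*.

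The Regnase genes had the largest responses. *Zc3h12a*, which encodes the endonuclease Regnase-1, measured 43.7, 39.8, 42 and 49.9 CPM in the 4 baseline wildtype mice and 173, 140, 184, 281 and 281 CPM after LPS. It measured 33.8, 25.5, 46.8, 56.5 and 54.3 CPM in baseline KO mice and 128, 220, 263, 244 and 365 CPM after LPS. In both genotypes the lowest LPS mouse stood at more than double the highest baseline mouse. The log2FC was 2.27 ± 0.29 (SE) in wildtype (4.83-fold, adjusted p = 4.06e-06, edgeR) and 2.49 ± 0.27 in KO mice (5.62-fold, adjusted p = 4.24e-07, edgeR). *Zc3h12c*, which encodes the related Regnase-3, measured 46.8, 39.4, 46.6 and 41 CPM in baseline wildtype mice and 130, 102, 130, 234 and 325 CPM after LPS. In KO mice it measured 42.8, 40, 54.7, 47.9 and 44.2 CPM at baseline and 110, 179, 199, 200 and 237 CPM after LPS. Here too the groups did not overlap, and the wildtype LPS mice spread widest, with 2 mice well above the other 3. Its log2FC was 2.08 ± 0.29 in wildtype (adjusted p = 8.84e-06, edgeR) and 2.01 ± 0.26 in KO mice (adjusted p = 3.97e-06, edgeR). Per kb, the pair summed to 16.2 ± 1.15 CPM per kb in baseline wildtype mice and 75.2 ± 26.9 after LPS, and *Zc3h12a* made up 69.6% of it before and 73.3% after (exact two-sided permutation p = 0.19). In KO mice the sum was 16.3 ± 3.83 and 83.6 ± 27.1 CPM per kb, and the share of *Zc3h12a* 67.2% and 74.5% (exact permutation p = 0.0476, adjusted p = 0.119 over the 20 share comparisons made among the 3 families).

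Within the ZFP36 family, 2 genes rose and the third did not pass the test. *Zfp36*, which encodes tristetraprolin, measured 484, 353, 534 and 429 CPM in baseline wildtype mice and 1280, 710, 1070, 1120 and 857 CPM after LPS. In KO mice it measured 374, 277, 549, 505 and 468 CPM at baseline and 537, 1310, 996, 1080 and 1450 CPM after LPS. The groups did not overlap in wildtype mice, whereas in KO mice 1 LPS mouse (replicate 1) lay just under the highest baseline mouse. The log2FC was 1.16 ± 0.26 in wildtype (2.24-fold, adjusted p = 0.00111, edgeR) and 1.31 ± 0.24 in KO mice (2.47-fold, adjusted p = 0.000164, edgeR). KO replicate 1 also had the lowest score of 6 immediate early genes (*Fos*, *Fosb*, *Jun*, *Egr1*, *Ier2*, *Nr4a1*) among the KO mice given LPS, 7.85 on the mean log2 CPM scale, and the highest score of other brain cell markers, 6.82. KO replicate 5, with the highest *Zfp36* level of all 19 mice, had the highest immediate early score and the lowest other brain cell score (3.77) of all 19 mice. The part of either score in the levels of *Zfp36* was not tested beyond the fits that follow. Without KO replicate 1 the log2FC in KO mice was 1.49, and without replicate 5 it was 1.17. With the immediate early score as a covariate, the log2FC of *Zfp36* was 0.81 in each genotype and was still called. This score moves with the treatment, as 3 of its 6 genes were called higher after LPS in each genotype.

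*Zfp36l1*, which encodes a tristetraprolin paralog (BRF1), measured 296, 242, 296 and 281 CPM in baseline wildtype mice and 672, 616, 688, 554 and 578 CPM after LPS. In KO mice it measured 299, 232, 346, 242 and 309 CPM at baseline and 456, 831, 452, 616 and 817 CPM after LPS. The groups did not overlap in either genotype, and its log2FC was 1.16 ± 0.18 in wildtype (adjusted p = 3.78e-05, edgeR) and 1.15 ± 0.17 in KO mice (adjusted p = 1.45e-05, edgeR). *Zfp36l2*, which encodes the other paralog (BRF2), measured 487, 316, 413 and 379 CPM in baseline wildtype mice and 621, 420, 389, 286 and 277 CPM after LPS. In KO mice it measured 415, 323, 444, 367 and 392 CPM at baseline and 265, 288, 317, 320 and 420 CPM after LPS. Its groups overlapped in both genotypes. The log2FC was 0.00 ± 0.20 in wildtype (95% interval −0.42 to 0.42, adjusted p = 0.999, edgeR) and −0.27 ± 0.19 in KO mice (−0.67 to 0.13, adjusted p = 0.269, edgeR). Both intervals lie below the log2FC of *Zfp36* and *Zfp36l1*. The wildtype value was −0.22 without LPS replicate 1, the mouse with 621 CPM. With the immediate early score as a covariate the log2FC in KO mice was −0.57 (adjusted p = 0.0199, edgeR) and passed the call, and without it and under the other alternatives it did not.

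The share of each gene in the family was also compared, with no difference that passed the correction below. The shares in a mouse sum to the whole family, so the share of 1 gene falls when the others rise. They restate the counts of the fits above and are not a separate observation. *Zfp36l2* made up 32.9% ± 2.13 (SD, n = 4) of the family's summed CPM per kb in baseline wildtype mice and 17.8% ± 4.16 (n = 5) after LPS, with ranges of 31–35.9% and 13.4–22.3% that did not overlap. In KO mice its share was 32.9% ± 2.7 at baseline and 15.1% ± 3.12 after LPS (n = 5 each), again without overlap. The exact two-sided permutation p was 0.0159 in wildtype mice and 0.00794 in KO mice, the smallest these group sizes allow. Adjusted over the 20 share comparisons, both came to 0.0794 and did not pass 0.05. The share of *Zfp36* was 39.9% ± 2.12 and 48.8% ± 5.77 in wildtype mice before and after LPS, and that of *Zfp36l1* 27.2% ± 1.63 and 33.4% ± 3.99. The summed level of the family was 321 ± 46.5 CPM per kb in baseline wildtype mice and 587 ± 99 after LPS, and 316 ± 52.3 and 590 ± 164 in KO mice. Between genotypes the share of *Zfp36l2* differed by −2.73 percentage points after LPS (exact permutation p = 0.254), and by −1.61 without wildtype replicate 1.

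**Figure D2:**
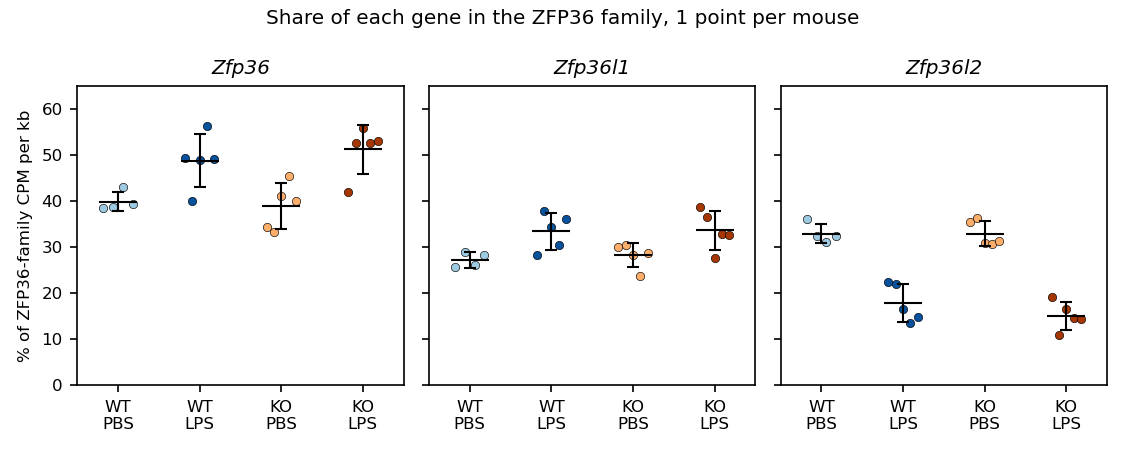
Share of each ZFP36-family gene in the family's summed CPM per kb of exon (vertical axis, percent) for wildtype (WT) and KO mice given PBS or LPS, 1 point per mouse, with bars for the mean ± SD (n = 4 in the WT PBS group and 5 in each other group). The share of *Zfp36l2* lies at 31–35.9% in WT PBS mice and 13.4–22.3% in WT LPS mice, with no overlap in either genotype. Its own level did not pass the test (log2FC 0.00 in WT mice), and its share falls as those of the other genes rise.

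The RNA-binding proteins HuR and KSRP showed smaller increases. *Elavl1* measured 112, 112, 117 and 107 CPM in baseline wildtype mice and 169, 177, 222, 168 and 204 CPM after LPS. It measured 120, 116, 116, 106 and 102 CPM in baseline KO mice and 199, 236, 163, 161 and 218 CPM after LPS. The groups did not overlap, and the log2FC was 0.75 ± 0.12 in wildtype (adjusted p = 4.28e-05, edgeR) and 0.80 ± 0.11 in KO mice (adjusted p = 7.53e-06, edgeR). *Ccl25* overlaps *Elavl1* on the opposite strand, with a median of 7.7% of the counts of *Elavl1*. The libraries were stranded, but the strand setting of the counting is not stated. *Khsrp* measured 190, 184, 183 and 156 CPM in baseline wildtype mice and 264, 277, 308, 231 and 294 CPM after LPS. In KO mice it measured 203, 197, 184, 152 and 155 CPM at baseline and 301, 307, 199, 241 and 314 CPM after LPS. Only KO replicate 3 after LPS fell within the baseline range. Its log2FC was 0.63 ± 0.14 in wildtype (adjusted p = 0.00103, edgeR) and 0.61 ± 0.13 in KO mice (adjusted p = 0.000596, edgeR). Neither *Elavl1* nor *Khsrp* reached a |log2FC| of 1.

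The Roquin genes did not pass the call. *Rc3h1* measured 196, 161, 200 and 153 CPM in baseline wildtype mice and 200, 189, 217, 216 and 252 CPM after LPS. It measured 189, 208, 193, 173 and 180 CPM in baseline KO mice and 207, 250, 255, 226 and 235 CPM after LPS. The groups overlapped in both genotypes. Its log2FC was 0.27 ± 0.11 in wildtype (adjusted p = 0.0439, edgeR) and 0.32 ± 0.10 in KO mice (adjusted p = 0.0131, edgeR), below the fold threshold of 0.5. *Rc3h2* measured 122 to 154 CPM in baseline wildtype mice and 144 to 178 CPM after LPS, and 136 to 166 and 146 to 198 CPM in KO mice. Its log2FC was 0.19 ± 0.10 in both genotypes (adjusted p = 0.152 in wildtype and 0.116 in KO mice, edgeR), and the groups overlapped. *Rc3h1* made up 71.2% of the pair's summed CPM per kb in baseline wildtype mice and 72.4% after LPS, and 70.7% and 72.5% in KO mice (exact permutation p = 0.0476 and 0.00794, adjusted p = 0.119 and 0.0794). The wildtype difference was 1.21 percentage points, and 0.624 without baseline replicate 4. The 3 transcript models without a named gene on the same strand within *Rc3h1* each held a median of 0.721% to 2.55% of its counts.

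**Figure D3:**
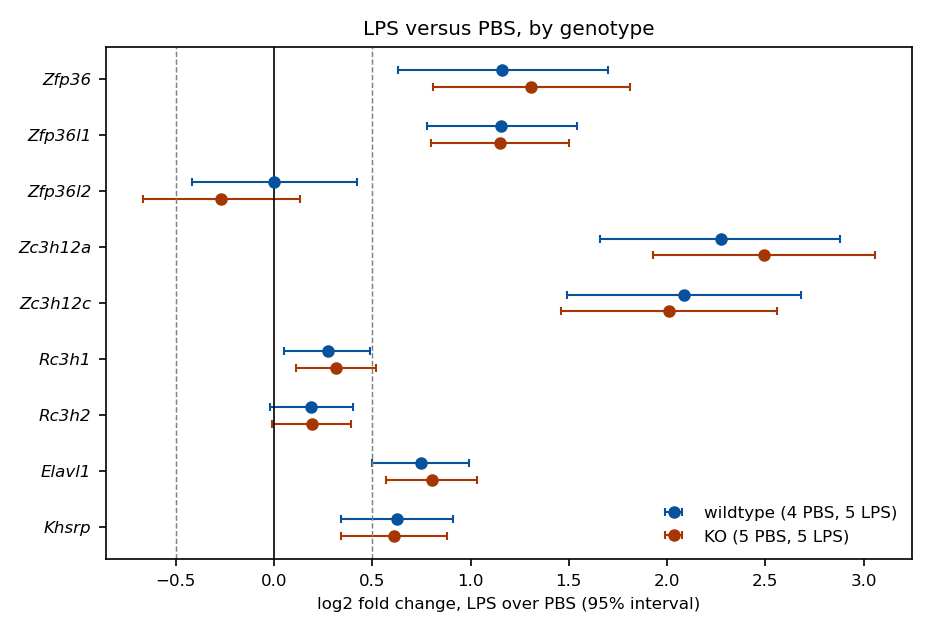
Log2 fold change of LPS over PBS mice (horizontal axis) for the 9 genes in wildtype (4 PBS and 5 LPS mice) and KO mice (5 and 5), with 95% intervals from the edgeR fit as bars. Dashed lines mark a log2FC of 0.5 in either direction. The Regnase genes lie above 2 in both genotypes, and the intervals of *Zfp36l2* and *Rc3h2* include 0.

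Between genotypes none of the 9 genes passed the call in either condition. For KO against wildtype the call was an unadjusted p-value under 0.05 with |log2FC| of at least 0.5, and 0 of the 9 passed it after LPS, where 0.544% of all genes tested were called higher and 0.763% lower. At baseline 0 of the 9 passed it, against 0.224% higher and 0.576% lower over all genes. With edgeR, 0 of the 9 had an unadjusted p-value under 0.05 in either condition. Over all 18739 genes tested, 482 did after LPS and 195 at baseline. DESeq2 also called 0 of the 9. No member separated KO from wildtype mice without overlap, after LPS (0.219% of all genes did) or at baseline (0.971%). The largest difference was in *Zfp36l2* after LPS, at 322 ± 59.2 CPM in the KO group and 399 ± 139 CPM in the wildtype group (log2FC −0.31 ± 0.19, 95% interval −0.71 to 0.09, unadjusted p = 0.123, adjusted p = 1, edgeR). It rests on wildtype LPS replicate 1 (621 CPM), without which the log2FC was −0.09. *Zc3h12a* stood at 244 ± 85.5 CPM in the KO group and 212 ± 65.3 CPM in the wildtype group after LPS (log2FC 0.20, interval −0.33 to 0.74; 0.01 without KO replicate 5 and 0.37 without KO replicate 1), and *Zfp36* at 1070 ± 351 and 1010 ± 224 CPM (log2FC 0.09, interval −0.40 to 0.59).

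The width of these intervals sets what could have been seen. For *Rc3h1*, *Rc3h2*, *Elavl1* and *Khsrp* the 95% intervals stayed within 0.34 of 0 in both conditions, so a genotype difference of 0.5 lies outside them. For *Zfp36l1* they reached from −0.33 to 0.40 at baseline and from −0.32 to 0.38 after LPS. For *Zfp36l2* they reached from −0.46 to 0.39 at baseline and to −0.71 on the lower side after LPS. For *Zfp36* and the Regnase genes they reached past 0.5 in at least 1 direction in both conditions, so a difference of that size is not excluded for these genes. The interaction of genotype and LPS gave 0 called genes among the 9 and 0% over all genes tested at an adjusted p-value under 0.05 (edgeR). Over all 18739 genes tested, 180 had an unadjusted interaction p under 0.05 (edgeR), and 0 of the 9 did. With so few over all genes, 0 of the 9 says little about these genes. The smallest was that of *Zfp36l2* (difference of the LPS effects, KO minus wildtype, −0.27 ± 0.28, unadjusted p = 0.344, adjusted p = 1, edgeR), and this difference was −0.05 without the same wildtype mouse.

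**Figure D4:**
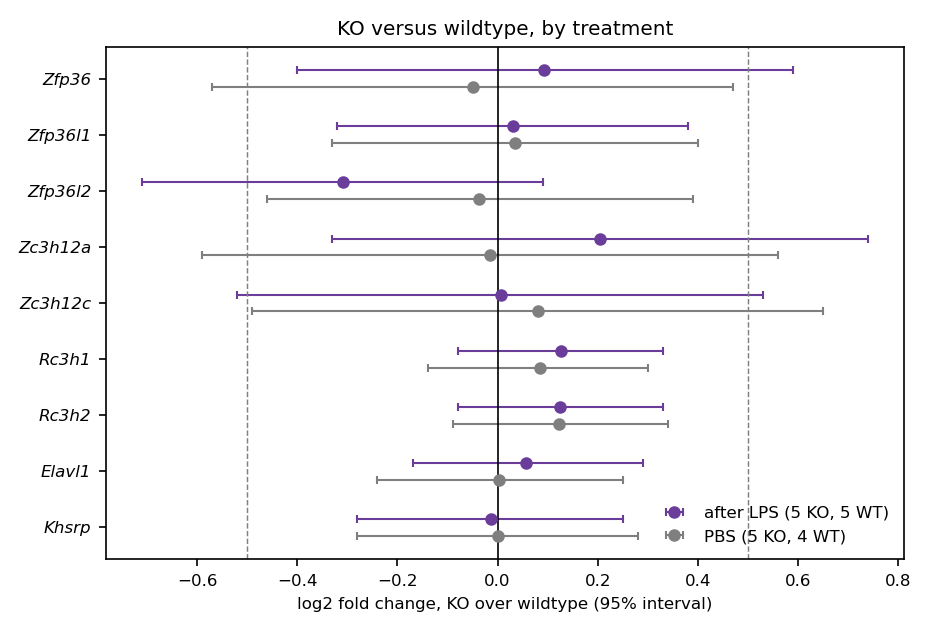
Log2 fold change of KO over wildtype (WT) mice (horizontal axis) for the 9 genes after LPS (5 and 5 mice) and after PBS (5 and 4), with 95% intervals from the edgeR fit as bars. Dashed lines mark a log2FC of 0.5 in either direction. All 18 intervals include 0.

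The genes also varied together between mice of the same group. In deviations of log2 CPM from the group means over the 19 libraries, *Rc3h1* and *Rc3h2* had a Pearson r of 0.92, *Elavl1* and *Khsrp* 0.85, and *Zc3h12a* and *Zc3h12c* 0.80. *Zfp36* went with *Zc3h12a* (0.71) and *Zfp36l1* (0.70). Other pairs were lower: *Zc3h12c* had 0.61 with *Rc3h1* and 0.53 with *Rc3h2*, and *Zfp36l1* had 0.53 with *Zfp36l2* and 0.49 with *Elavl1*. *Zfp36* and *Khsrp* had −0.17, and *Zc3h12a* and *Khsrp* −0.40. *Zfp36* had r = 0.77 with the immediate early score and −0.72 with the score of other brain cells. Several members shared a negative r with the latter score: *Zc3h12a* had −0.58, *Zfp36l1* −0.56, *Zfp36l2* −0.53 and *Zc3h12c* −0.43. *Rc3h1*, *Rc3h2*, *Elavl1* and *Khsrp* had −0.28 to 0.03 with it. With the immediate early score *Zfp36l1* had 0.70, *Zc3h12a* 0.64, *Zfp36l2* 0.59 and *Zc3h12c* 0.37, while *Rc3h1*, *Rc3h2*, *Elavl1* and *Khsrp* had −0.05 to 0.17. *Zfp36l2* had 0.67 with the microglial markers, *Zc3h12a* and *Zc3h12c* −0.46 and −0.50, and the other members 0.12 to 0.39. With the neutrophil markers *Khsrp* had −0.52, *Elavl1* −0.32, *Rc3h2* 0.32 and *Zc3h12a* 0.45, and the other members −0.21 to 0.3. These values are descriptions, with no p-value: both genes of a pair were read from the same libraries, which differed in depth and in cell make-up as given above.

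Over all 19 libraries, treatment included, the genes with the pattern most like each member by Pearson r of log2 CPM were as follows. For *Zfp36* they were *Junb* (0.984), *Ccrl2* (0.971) and *Snhg15* (0.968). For *Zc3h12a* they were *Lilrb4a* (0.992), *Ptger4* (0.990) and the chemokine gene *Cxcl2* (0.990). For *Zc3h12c* they were *AI504432*, *Tnfaip3* and *N4bp1*, each at 0.987. *Zfp36l1* was most like *Simc1* (0.979), *Dhx30* and *Bdp1* (0.974 each), and *Zfp36l2* most like *Ep300* (0.891), *Fmnl1* (0.863) and *Arhgap39* (0.839), the lowest leading r of the 9. *Rc3h1* was most like *Wtap* (0.943), *Cacul1* (0.938) and *Rc3h2* (0.935), and *Rc3h2* most like *Rc3h1* (0.935), *Map3k7* (0.900) and *Wtap* (0.890). *Elavl1* was most like *Hsp90ab1*, *Rad23b* (0.984 each) and *Cops8* (0.983), and *Khsrp* most like *Ubqln4* (0.989), *Rangap1* (0.984) and *Strn4* (0.980).

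The promoter of *Zfp36* is shown because this gene had the highest r of the 9 with the immediate early score (0.77), followed by *Zfp36l1* (0.70). It is the 250 bases before the RefSeq start site, on the minus strand at chr7:28379229-28379478 of GRCm38.p6, a build other than that of the counts, with motif matches in capitals. The start sites of *Zfp36* and some other members differ between RefSeq and GENCODE, so distances and windows hold for the RefSeq starts only.
*Zfp36* promoter: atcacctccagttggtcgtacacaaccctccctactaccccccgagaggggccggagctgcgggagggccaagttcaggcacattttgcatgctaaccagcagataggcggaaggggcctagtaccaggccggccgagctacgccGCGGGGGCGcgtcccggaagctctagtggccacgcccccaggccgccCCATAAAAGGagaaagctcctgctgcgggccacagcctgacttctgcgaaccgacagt
The capitals mark an EGR motif (GCGNGGGCG) 105 to 97 bases and a CArG box (the element bound by serum response factor) 58 to 49 bases before the start. Among 32851 RefSeq promoter windows of this length, 4.70% held the EGR motif and 1.47% a CArG box on either strand. Also searched were the AP-1 motif (TGANTCA, in 6.75% of windows), the cyclic AMP response element (TGACGTCA, in 1.55%) and the NF-kappaB motif by its name (in 3.90%). *Zfp36l1* and *Rc3h1* each held 1 AP-1 motif, and the windows of *Zc3h12a*, *Zc3h12c*, *Rc3h2*, *Elavl1* and *Khsrp* held no match to any of the 5. *Zfp36l2* had no window among these. No overlap occurred between motifs in these windows. The motifs were chosen after the sequences were seen, so the shares of windows do not measure how unusual the matches of *Zfp36* are. A match is a description of letters, not of binding.

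The wider decay machinery and the known targets were read from 5 further lists. These lists were chosen with earlier results of these data known, so their counts are descriptions. For LPS against baseline in wildtype mice, counts are to be read against 18.4% called higher and 17.4% lower over all genes. Of 25 factors of decapping, 5′-3′ decay and the exosome, 13 were called higher and 0 lower (median log2FC 0.52). The leading ones were the exosome subunit *Exosc2* (log2FC 1.68 ± 0.14), the exosome nuclease *Dis3* (1.44 ± 0.11) and *Exosc1* (1.35 ± 0.17). In KO mice 13 of 25 were also higher and 0 lower, with *Exosc2* at 1.75 ± 0.13 and *Dis3* at 1.61 ± 0.10. Of 20 CCR4-NOT and other deadenylation factors, 2 were higher and 4 lower in wildtype mice. The 2 were the poly(A)-binding proteins *Pabpc1* (1.04 ± 0.22) and *Pabpc4* (0.91 ± 0.16), and the lower ones were led by the deadenylases *Cnot8* (−0.94 ± 0.15) and *Parn* (−0.90 ± 0.19) and by *Pan2* (−0.58 ± 0.16). In KO mice 3 were higher and 4 lower, and 5 and 2 without LPS replicate 1.

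Of 22 other RNA-binding proteins of AU-rich and stem-loop elements, 8 were higher and 5 lower in each genotype. The largest increases in wildtype mice were in the Regnase paralog *Zc3h12d* (2.84 ± 0.42), the endonuclease-like *N4bp1* (1.86 ± 0.23) and *Arid5a* (1.65 ± 0.25), which is known to stabilise *Il6* mRNA. The largest decreases were in *Igf2bp2* (−1.86 ± 0.41), the Regnase paralog *Zc3h12b* (−1.33 ± 0.23) and the neuronal HuR paralog *Elavl4* (−1.26 ± 0.29). The Regnase paralogs thus moved in both directions. Of 13 enzymes that modify or cleave these proteins, 4 were higher and 1 lower in wildtype mice, and 6 and 1 in KO mice. The kinase gene *Mapkapk2* (MK2, which phosphorylates tristetraprolin) led with 2.66 ± 0.23 in wildtype and 2.72 ± 0.21 in KO mice, followed by *Malt1*, the protease that cleaves Regnase-1 (1.75 ± 0.41), and the phosphatase gene *Dusp1* (1.68 ± 0.25). The kinase gene *Mapk14* (p38α), which acts upstream of MK2, was lower (−1.13 ± 0.24 in wildtype and −1.51 ± 0.23 in KO mice).

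Of 22 mRNAs known as targets of ZFP36, Regnase-1 or Roquin, 21 were tested, since *Csf2* had at most 1 count per library. In wildtype mice 17 were higher and 1 lower (median log2FC 3.02), and in KO mice 19 and 1 (median 3.19). This list, too, was chosen with earlier results of these data known, so these counts are a description and no test. The largest increases in wildtype mice were in *Il12b*, *Cxcl1* and *Lcn2*. *Il12b*, a subunit of interleukins 12 and 23, had 0 to 13 counts per library in baseline wildtype mice, and 22, 21, 77.9, 180 and 619 CPM after LPS (log2FC 9.31 ± 1.2). The chemokine gene *Cxcl1* measured 1.06 ± 0.67 and 84.8 ± 36.2 CPM (log2FC 6.34 ± 0.56), and the iron-binding lipocalin gene *Lcn2* 10.8 ± 1.7 and 738 ± 339 CPM (6.09 ± 0.59). *Icos*, a T cell costimulatory receptor, was the one lower (−3.01 ± 0.55), at 18 to 42 counts per baseline wildtype library and 0 to 10 after LPS. Of the 22 listed genes, tested or not, 21 had an annotated 3′ UTR. Of these, 16 (76.2%) held the heptamer TATTTAT, beside the 32.3% of tested genes given above. The list was drawn from known targets, many of them known for such elements.

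Between genotypes, 1 gene of these 5 lists passed the call, to be read against the 0.224% called higher and 0.576% called lower over all genes at baseline. *Zc3h12d* was lower in KO mice at baseline, with 1.15, 1.15, 1.45 and 1.24 CPM in wildtype and 0.246, 0.416, 0.406, 0.524 and 1.67 CPM in KO mice (log2FC −0.92 ± 0.42, unadjusted p = 0.0428, adjusted p = 1, edgeR). These levels rest on 4 to 31 counts per library, KO replicate 5 had the highest of all 9, and the call was lost in 8 of 9 fits that each left out 1 mouse and held only without that mouse. After LPS, 0 genes of the 5 lists were called between genotypes. *Arid5a* lay just under the fold threshold (log2FC 0.49 ± 0.22, unadjusted p = 0.0417, adjusted p = 1, edgeR) and is named after its values were seen. The list of other RNA-binding proteins gained 1 higher call without wildtype LPS replicate 1 or without KO LPS replicate 1, 2 or 4, and the list of targets gained 1 without KO LPS replicate 1. At baseline the list of targets gained 1 lower call without KO replicate 4.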

How the data were processed

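RNA of CD11b+ cells sorted from the brains of 19 mice was made into stranded, ribosome-depleted libraries, whose reads were trimmed by the authors with Cutadapt and aligned with STAR 2.7.9a on GRCm39. The table deposited by the authors holds raw counts, whole numbers for every gene of an Ensembl annotation, without normalization. The strand setting of the counting is not given in the sources used here. For the present tests, edgeR 4.0.16 under R 4.3.3 was used (filterByExpr with minimum count 10 and minimum total 15, TMM, 1 quasi-likelihood fit of 4 groups), with Benjamini-Hochberg adjustment and the study's thresholds. DESeq2 1.42.0 was an alternative. The SE of a log2FC is its size over the square root of F. Log2 CPM used a prior count of 2. Family shares and their alternatives were chosen after seeing the data, and the shares were compared with exact permutation tests over mice. Names, exon lengths and 3′ UTRs came from GENCODE M39 on GRCm39 (56236 of 56980 genes named, all 9 members among them), and promoters from RefSeq (GRCm38.p6, 8 of the 9 members matched). Fits were tested on simulated data. Alternatives covered scaling, tool, filter, covariates, samples in the fit, thresholds and leaving out each mouse. Depth limits cover counting error only. The 36 pairs of libraries within groups differed by more than sampling noise (chi-square at least 6.5 per degree of freedom).

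The members and gene lists were chosen with earlier results of these data known, and motif lists other than the AU-rich ones after the sequences were seen. The genes named beyond the 9 were, per list, the 3 called genes with the largest change each way for LPS in wildtype mice and any called between genotypes, and the 3 genes most like each member. Mice are separate animals.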

Additional observations from a re-analysis of the deposited data

How the results depend on the processing

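The calls of all 6 genes higher after LPS held in both genotypes under every alternative scaling, tool, filter, covariate and set of samples and without any single mouse. The exception was a |log2FC| threshold of 1, under which *Elavl1* and *Khsrp* lost theirs and 2053 genes were higher and 2026 lower in wildtype, 2293 and 2224 in KO mice. With the immediate early score as a covariate, 1 member (*Zfp36l2*) was called lower in KO mice, and the cause was not tested. No alternative called a member between genotypes or in the interaction.

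Counts over all genes between genotypes depended on the processing. After LPS, 102 genes were higher and 143 lower, against 347 and 507 with no filter on low counts, 42 and 69 with at least 10 counts in every library (more and fewer genes tested), 36 and 69 with the 2 groups only, and 0 and 2 at an adjusted p under 0.05. With the immediate early score 221 were lower. At baseline, 42 were higher and 108 lower, against 241 and 439 with no filter, 6 and 52 with at least 10 counts, 82 and 185 with the other brain cell score, and 0 and 1 at an adjusted p. With the animal number as a covariate 214 were lower. Leaving out 1 mouse gave 100 to 204 higher after LPS (204 without KO replicate 1, 164 without KO replicate 5), 105 to 270 lower (270 without KO replicate 5), and at baseline 30 to 94 higher (94 without wildtype replicate 2, 72 without wildtype replicate 4) and 67 to 153 lower (67 without wildtype replicate 4 or KO replicate 3).

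Replicate numbers were not taken to pair the mice, which are separate animals. Between treatments, 3 of 4 same-numbered pairs in wildtype and 4 of 5 in KO mice had r over 0.1. Between genotypes, 1 of 5 pairs after LPS and 2 of 4 at baseline did. Whether same-numbered mice share a structure was not tested beyond the replicate block below. Deviations of same-numbered mice had a mean r of 0.325 and 0.254 between treatments, and −0.102 and −0.006 between genotypes. A mouse was most like its own number in 2 of 4, 3 of 5, 1 of 5 and 2 of 4 pairs. With the replicate block, 189 genes were lower in KO mice at baseline, and no call of a member changed.

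Values near 0 changed sign. For KO against wildtype after LPS, *Zfp36l1* was −0.01 with the other brain cell score. *Zc3h12c* was −0.01 with no filter, −0.02 with at least 10 counts and with the other brain cell score, −0.03 with the animal number and −0.04 with the immediate early score. At baseline, with the immediate early score, *Zfp36* was 0.04, *Zfp36l2* 0.03 and *Zc3h12a* 0.06. With the replicate block *Zfp36l1* was −0.01 and *Zc3h12c* −0.03, the latter −0.06 with the animal number. The interaction of *Zfp36l1* was 0.03 with DESeq2, its size factors or the replicate block, that of *Zc3h12c* 0.10 with the replicate block and 0.03 with the animal number, and that of *Khsrp* 0.02 with DESeq2 or its size factors. The cause was not tested.

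Without 1 mouse each, KO against wildtype after LPS ranged from −0.04 to 0.27 for *Zfp36*, −0.09 to 0.13 for *Zfp36l1*, −0.42 to −0.09 for *Zfp36l2*, 0.01 to 0.37 for *Zc3h12a*, −0.14 to 0.31 for *Zc3h12c*, −0.02 to 0.13 for *Elavl1* and −0.07 to 0.08 for *Khsrp*. At baseline it ranged from −0.14 to 0.07 for *Zfp36*, −0.03 to 0.10 for *Zfp36l1*, −0.13 to 0.07 for *Zfp36l2* and −0.13 to 0.13 for *Zc3h12a*. The interaction ranged from −0.12 to 0.10 for *Zfp36l1*, −0.23 to 0.23 for *Zc3h12c*, −0.02 to 0.11 for *Rc3h1*, −0.02 to 0.12 for *Elavl1* and −0.07 to 0.08 for *Khsrp*. In percentage points, KO minus wildtype shares ranged from −2.71 to 0.322 for *Zfp36* at baseline and, after LPS, from 0.297 to 4.81 for *Zfp36*, −1.03 to 1.77 for *Zfp36l1*, −3.84 to −1.61 for *Zfp36l2*, −0.587 to 1.91 for *Zc3h12a* and −0.192 to 0.431 for *Rc3h1*. The 9 genes had at least 551 counts in every library.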
